A study of Mus musculus with 5 samples.

Results

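The genes of B-cell surface antigens and their relatives were examined in a list of H3K27ac peaks. They were the listed genes Cd72, Cd22, Ms4a1, Cr2, Fcer2a, Cd37, Cd40, Cd38 and Fcrla, taken by name with earlier results of these data known, and all 9 were found among the 21887 protein-coding genes of the annotation. The list was made from 4 H3K27ac ChIPmentation libraries and 1 input library. In ChIPmentation, chromatin held by the antibody is cut and tagged with sequencing adapters by the Tn5 transposase. All libraries came from mouse bone marrow cells that had been sorted for CD45.2, Sca1 and Kit and against lineage markers, and are labelled HSC/MPP (haematopoietic stem cells and multipotent progenitors). All carried the genotype Mll3/4 deleted, the deletion of a pair of enhancer-associated histone methyltransferases. The antibodies that made up the lineage gate, the age of the mice and the way the deletion was induced are not given in the sources used here. No control genotype was used here, so nothing below is a gain or a loss, and with 1 pooled list there is no replicate error and no test.

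H3K27ac is a histone acetylation found at active promoters and enhancers. B-cell antigens are switched on in steps as marrow progenitors commit to the lineage, assemble a B-cell receptor and leave for the spleen and lymph nodes. Cd72 and Cd22 encode inhibitory coreceptors that recruit the phosphatase Ptpn6 after phosphorylation by Lyn, and Ms4a1 encodes CD20. These 3 were taken as early antigens, assumed to appear before or while the receptor is assembled. The placement by stage is general knowledge and was not read from these data. Cr2 encodes the complement receptor CD21, which acts with Cd81 in the coreceptor of mature B cells, and Fcer2a encodes CD23, the low-affinity IgE receptor of mature B cells; these 2 were taken as late. Cd37 (a tetraspanin), Cd40 (the receptor for CD40 ligand, which signals through TRAF proteins) and Cd38 (an ectoenzyme that consumes NAD) are shared with other leukocytes. Fcrla encodes an Fc receptor-like protein that stays inside the B cell, so it is not a surface antigen in the strict sense, and it was not placed by stage.

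Of the 9 genes, 2 had a peak at an end: Cd72, an early antigen, and Cd37, a gene shared with other leukocytes. A peak was counted when it overlapped the 1 kb on either side of either end of the gene. Over all protein-coding genes 36.2% had such a peak, so 2 of 9 genes (22.2%) is no more than the background. The same 2 genes were called among peaks with a q-value of at most 0.05 (34.4% of all genes), a −log10 q of 5 or more (24.0%) or a signal value of 4 or more (23.2%), and when the summit itself had to lie in the window (33.3%). Within 2.5 kb of an end, 3 of 9 were called (39.3% of all genes), Cd22 being the addition. Of the early antigens 1 of 3 had a peak at an end, of the late antigens 0 of 2, of the shared genes 1 of 3, and Fcrla had none. These numbers are too small to set the stages apart. A gene without a peak is a gene where none passed the authors' calling at an unknown depth, so the list says nothing of weaker acetylation there, and in bulk cells fewer acetylated cells and less acetylation per cell cannot be told apart.

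The sequences before the annotated starts of 4 of the genes are shown as examples, picked with their peaks and letters known. Cd72 and Cd37 lie inside a peak. Cd22 alone of the genes with an annotated start holds the letters of the B-lineage factor Ebf1, without a peak. Cr2 has the most CpG of the genes with an annotated start, without a peak. Each is the 250 bases that end just before the start, 5′ to 3′ on the strand of the gene, from RefSeq on GRCm38.p6. They are chr4:43454627-43454876 for Cd72, chr7:45238840-45239089 for Cd37, chr7:30879029-30879278 for Cd22 and chr1:195176720-195176969 for Cr2, all on the minus strand. The annotated start is not always the outermost end of the gene: the windows of Cd72, Cd37 and Cd22 lie wholly inside it, since the gene reaches 476, 501 and 1314 bp further, and 161 of the 250 bases of Cr2 do. Capitals mark matches to the motifs searched.
Cd72: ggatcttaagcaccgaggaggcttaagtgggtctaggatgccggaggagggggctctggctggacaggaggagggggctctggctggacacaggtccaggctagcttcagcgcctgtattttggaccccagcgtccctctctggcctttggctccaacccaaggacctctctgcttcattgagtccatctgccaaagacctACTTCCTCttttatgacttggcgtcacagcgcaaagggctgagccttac
Cd37: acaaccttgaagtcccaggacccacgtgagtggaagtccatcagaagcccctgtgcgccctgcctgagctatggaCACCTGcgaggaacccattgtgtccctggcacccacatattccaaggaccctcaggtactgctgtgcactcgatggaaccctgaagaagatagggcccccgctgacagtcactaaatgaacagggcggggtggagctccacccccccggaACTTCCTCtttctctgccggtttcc
Cd22: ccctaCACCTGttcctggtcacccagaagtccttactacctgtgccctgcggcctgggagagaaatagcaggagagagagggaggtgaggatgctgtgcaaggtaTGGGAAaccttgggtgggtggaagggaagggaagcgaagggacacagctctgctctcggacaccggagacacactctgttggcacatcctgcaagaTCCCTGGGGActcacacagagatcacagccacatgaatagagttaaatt
Cr2: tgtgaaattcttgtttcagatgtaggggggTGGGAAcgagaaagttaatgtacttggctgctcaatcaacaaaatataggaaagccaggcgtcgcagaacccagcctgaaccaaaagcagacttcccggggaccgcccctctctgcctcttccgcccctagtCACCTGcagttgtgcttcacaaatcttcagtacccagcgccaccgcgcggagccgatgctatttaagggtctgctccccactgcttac

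Both genes with a peak held the PU.1 letters GAGGAAGT, read on the opposite strand as ACTTCCTC. PU.1 is an ETS factor of myeloid and B cells. The match lay 49 to 42 bases before the start of Cd72 and 25 to 18 bases before the start of Cd37. Among 21263 windows of the same length and kind, 2.23% held these letters on either strand; the share was 2.64% of the 7957 windows with a peak within 1 kb of the start and 1.98% of the other 13306. None of the other 5 genes with an annotated start held it, but 2 genes are too few to tie the letters to a peak. Cd22 held the Ebf1 palindrome, TCCC and GGGA with any 2 bases between them, 49 to 40 bases before its start. It occurred in 0.832% of all windows, and in 0.842% and 0.827% of windows with and without a peak. Ebf1 is a founding factor of the B lineage, and Cd22 had no peak at its ends.

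Over all windows, the E box and Ikaros letters were commoner than those of PU.1 and Ebf1. The 7 genes with an annotated start had 9 windows, 3 of them of Fcer2a. The E box letters CACCTG were found in 5 of the 9 (1 each of Cd22, Cd37, Cr2, Fcer2a and Fcrla), against 16.9% of all windows, and CAGCTG in 1, of Fcer2a, against 12.1%. The Ikaros letters TGGGAA were found in 5 of the 9 (Cd22, Cd38, Cr2 and 2 of Fcer2a), against 20.9%, and the octamer ATGCAAAT in 0 of the 9, against 1.58%. All motifs were read on both strands; CACCTG and TGGGAA can share bases, as they do in 1 of the 3 windows of Fcer2a. Starts were matched for 7 of the 9 genes; Cd40 and Ms4a1 were not matched. A match describes the letters only and is not a site of binding.

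The genes also differed in their number of CpG dinucleotides. Cd72 had 6 CpG and Cd37 had 8 in the 250 bases before the start. Cd22 had 4, the richest of the 3 windows of Fcer2a had 3, and Cd38 and Fcrla had 1 each. Cr2 had 11, which is also the median over all genes. Over all genes with an annotated start, 38.0% had a peak within 1 kb of it, but the share was 6.34% of the 5616 genes with 0 to 4 CpG, 29.7% of the 2592 genes with 5 to 9 and 59.5% of the 9284 genes with 10 or more. The 4 genes in the poorest class had no peak, both genes in the middle class had one, and the only gene in the richest class, Cr2, had none.

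**Figure D1:**
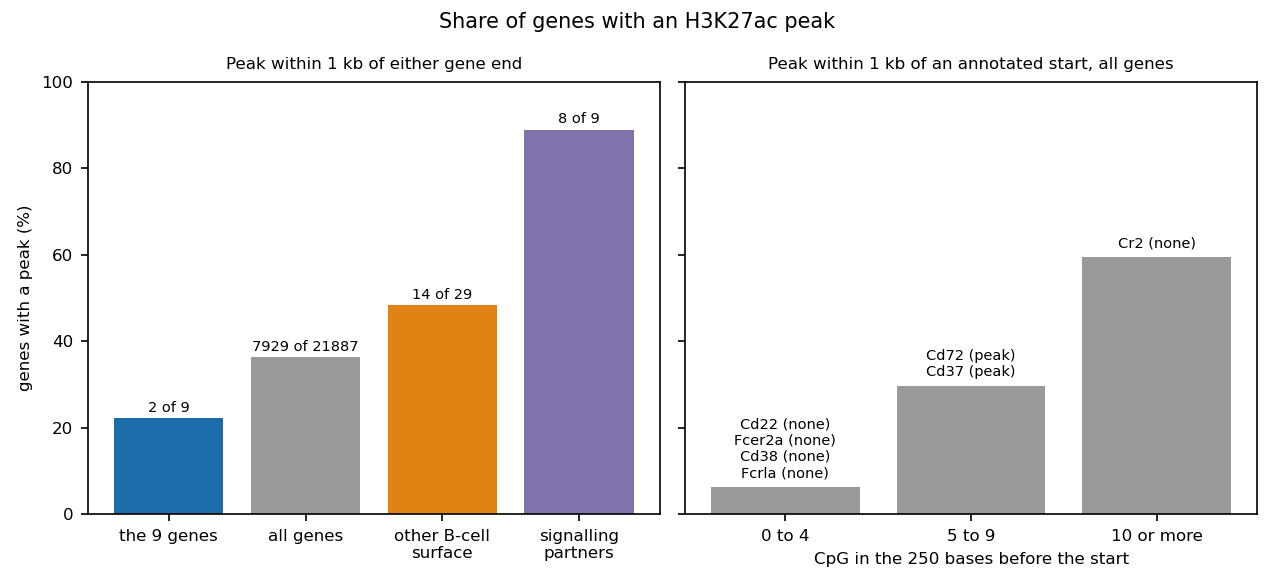
Share of genes with an H3K27ac peak, in percent. Left: a peak within 1 kb of either end, for the 9 genes (2 of 9), all protein-coding genes (7929 of 21887), 29 other B-cell surface genes (14) and 9 signalling partners (8). Right: a peak within 1 kb of an annotated start over all genes, by CpG number in the 250 bases before the start; the names above the bars are the genes described here, with their own state.

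Cd72 lies on chromosome 4 from 43447724 to 43455102, on the minus strand. Its annotated start lies 476 bp inside the high end of the gene. Its peak ran from 43452854 to 43455867, with a signal value of 4.41 and a −log10 q of 6.93. The former was taken as a ratio, H3K27ac over background, and q as an adjusted p-value, both from the authors' calling. The summit lay 542 bp upstream of the annotated start, and the peak covered 30.5% of the gene. A further peak, from 43456573 to 43458082, followed upstream with its summit 3.15 kb from the start, a signal value of 3.36 and a −log10 q of 3.22. Cd72 was the nearest gene to both. This was the only one of the 9 genes with a peak of its own beyond the one at its end.

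Cd72 had 7 peaks within 50 kb, the most of the 9 genes. With a −log10 q of 5 or more, or a signal value of 4 or more, it had 2, as many as Fcer2a. In the full list, 4 of its 6 neighbours within that distance (Tesk1, Sit1, Ccdc107 and Arhgef39) had a peak at an end. The strongest of the 7, with a signal value of 4.62, lay from 43442351 to 43442992 at the start of Tesk1, 430 bp from it. It was slightly above the peak of Cd72 itself. The remaining 4 peaks lay 23.4 to 37.9 kb from Cd72 and were nearest to Sit1 or Ccdc107, with signal values from 3.03 to 3.88.

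Cd37, on chromosome 7 from 45233632 to 45239340, had the stronger and wider of the 2 peaks. The peak ran from 45234609 to 45239343, with a signal value of 5.35 and a −log10 q of 10.6. Cd37 is also on the minus strand. The summit lay 262 bp downstream of its start, and the peak covered 82.9% of the gene, reaching the windows at both ends. No other peak lay within 50 kb, and none of the 5 neighbours in that distance had a peak at an end.

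The peaks of both genes were wide for their height. The median over the 7929 genes with a peak at an end was 4.71 for the strongest signal value and 1109 bp for the width of that peak. The Cd72 peak was stronger than 44.4% of these and wider than 93.2%, at 3014 bp. The Cd37 peak was stronger than 60.8% and wider than 98.2%, at 4735 bp. For the 14 other B-cell surface genes called at an end, the median signal value was 4.28 and the median width 1996 bp.

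**Figure D2:**
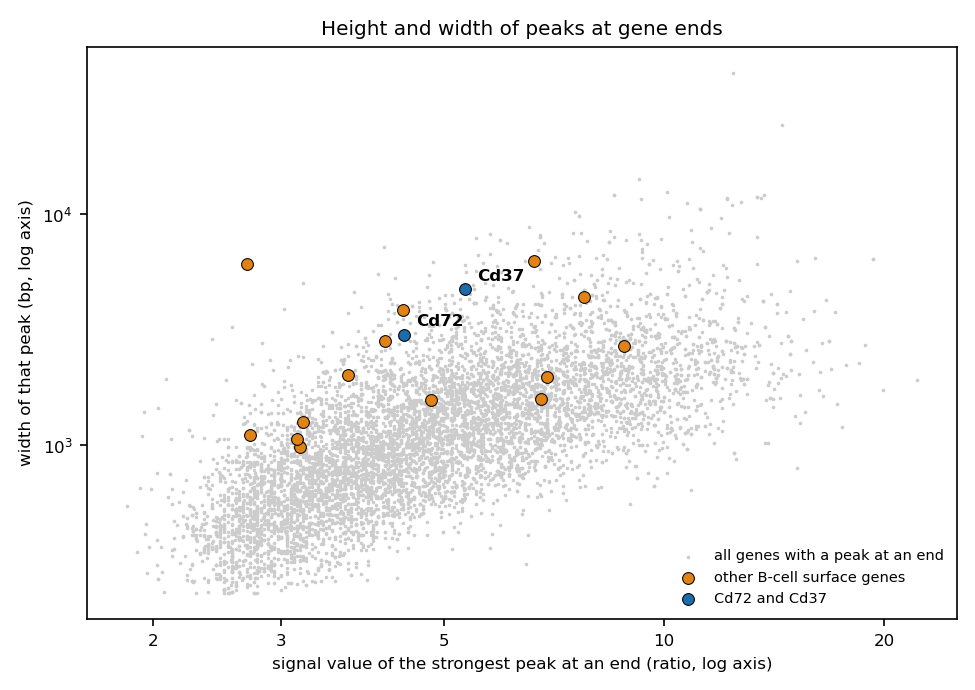
Signal value (ratio, log axis) against width (bp, log axis) of the strongest peak at an end, for each of the 7929 genes with such a peak (grey), 14 other B-cell surface genes (orange) and Cd72 and Cd37 (blue). Cd72 at 4.41 and 3014 bp and Cd37 at 5.35 and 4735 bp lie near the middle of the heights and near the top of the widths.

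Cd22 and Ms4a1, the other early antigens, had no peak at an end or in the body. Cd22, on chromosome 7 from 30865404 to 30880342 on the minus strand, had its nearest peak 2.07 kb beyond its far end, outside the 1 kb window. That peak, from 30862844 to 30863331, was weak, with a signal value of 2.71 and a −log10 q of 1.52, and its summit was nearer to Ffar1, a fatty acid receptor gene, than to Cd22. A pair of peaks at Ffar2, with signal values of 3.24 and 3.19, lay 44.2 and 43.1 kb away. Ms4a1, on chromosome 19 from 11249679 to 11266149, had 1 peak within 50 kb. It lay 26.8 kb away, from 11292918 to 11293492, with a signal value of 4.34, and the nearest gene was Ms4a14, with the summit 7943 bp from its end. Cd72, Cd22 and Ms4a1 thus had 7, 3 and 1 peaks within 50 kb, but 2, 0 and 1 in either stricter list, and only Cd72 had one that touched the gene.

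The late antigens had strong peaks beside them that lay at the starts of neighbouring genes. Cr2, on chromosome 1 from 195136811 to 195176880, had 1 peak within 50 kb, from 195130576 to 195132358, with a signal value of 10.10 and a −log10 q of 35.4. It was stronger than 97.8% of all peaks and the strongest within 50 kb of any of the 9 genes. Its summit lay 143 bp from the start of Cr1l, a complement regulator gene next to Cr2, and 45.3 kb from the start of Cr2, with the gene between them. Fcer2a, on chromosome 8 from 3680280 to 3694174, had a peak 2.76 kb from its far end, from 3676545 to 3677521, with a signal value of 5.81. The summit lay 361 bp from the start of Trappc5, a gene of vesicle transport, and 13.6 kb from the nearest start of Fcer2a. The other peak near Fcer2a lay 48.4 kb away, with a signal value of 5.05, 318 bp from a start of Stxbp2, a gene of granule release. All 3 peaks were nearest to other genes, and neither late antigen had a peak in its body.

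Cd40 and Cd38 had only weak peaks at a distance. Cd40, on chromosome 2 from 165055614 to 165071654, had 1 peak within 50 kb, 21 kb away, with a signal value of 2.66. Its −log10 q was 1.22, a q-value of 0.0604, and its summit lay 351 bp from a start of Ncoa5. Cd38, on chromosome 5 from 43868809 to 43912374 on the plus strand, had 1 peak 44.5 kb away, inside Bst1, its paralogue and only neighbour, with a signal value of 2.78 and a −log10 q of 1.76. Bst1 encodes a related surface enzyme of marrow cells and had no peak at an end.

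Fcrla was the only one of the 9 without a peak within 50 kb, a state shared with 31.3% of all genes. It lies on chromosome 1 from 170917594 to 170932216 in a cluster of Fc receptor genes, and none of its 5 neighbours within 50 kb, Fcrlb and Fcgr2b (the inhibitory Fc receptor of B cells) among them, had a peak at an end. The nearest peak lay 106 kb away, from 171038080 to 171038579, with a signal value of 9.24, stronger than 96.7% of all peaks but only 500 bp wide. The nearest gene to it was Fcgr4, an Fc receptor of myeloid cells, 8557 bp from the summit.

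**Figure D3:**
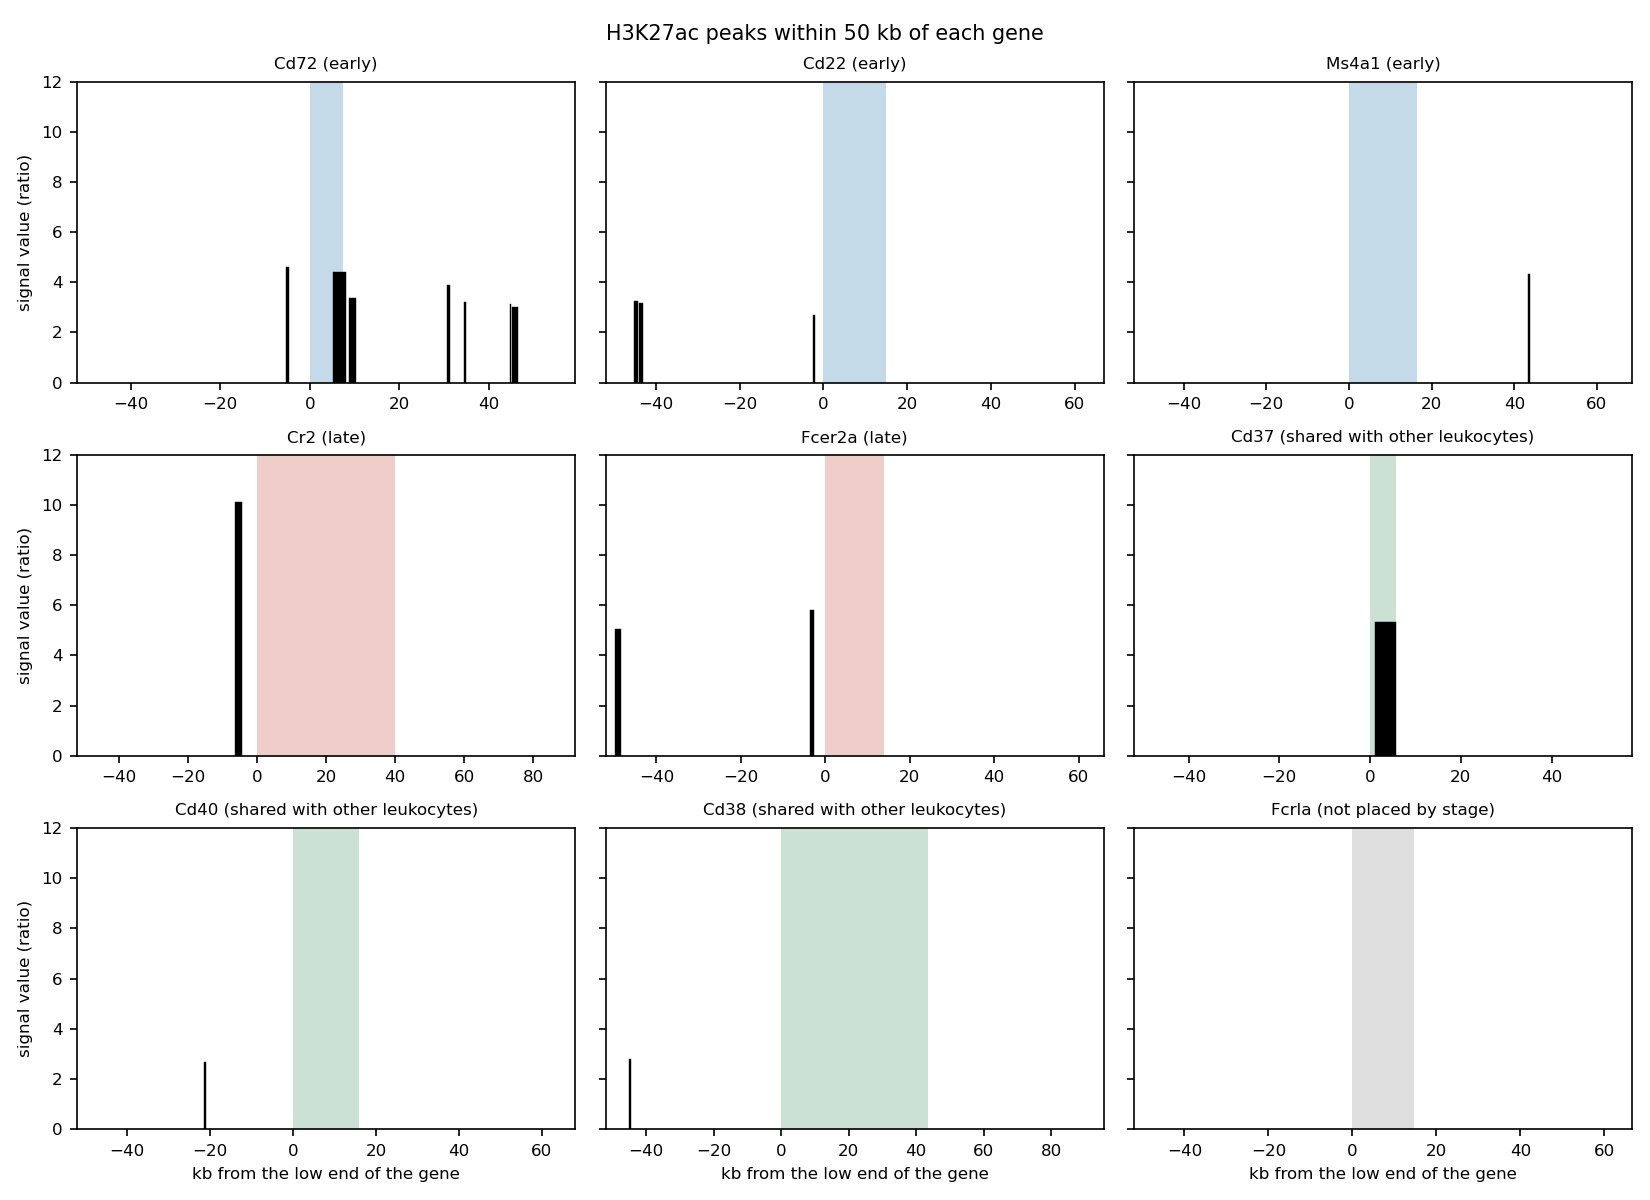
H3K27ac peaks (black bars, drawn to their width) within 50 kb of each gene (shaded); x axis, distance in kb from the end of the gene with the lower coordinate; y axis, signal value (ratio). Peaks touch the gene only at Cd72 (7 peaks within 50 kb) and Cd37 (1), and no peak is drawn at Fcrla.

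Within 50 kb, 8 of the 9 genes had a peak, against 68.7% of all genes, but most of these peaks lay nearer to other genes. There were 17 such peaks in all. Of these, 2 overlapped the gene, 3 had it as the nearest gene, and 8 summits lay within 1 kb of another gene's end. The median number of peaks within 50 kb was 1 for the 9 genes and 2 for all genes. With 3 peaks or more within 50 kb there were Cd72 and Cd22, against 38.1% of all genes. In the stricter lists 5 of the 9 genes had a peak within 50 kb, against 53.5% of all genes with a −log10 q of 5 or more and 52.1% with a signal value of 4 or more, and 0 of the 9 had 3 or more, against 13.8% and 12.7%. Counted by the nearest gene, 2 of the 9 had a peak within 50 kb, against 42.2% of all genes.

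The median gene length was 14939 bp for the 9 genes and 17169 bp for all genes. Peaks in the body were commoner in longer genes, so each gene was also read against its own quintile of length. Cd72 and Cd37, which had a peak in the body, are in the second quintile, where 34.8% of genes had one. Cd22, Ms4a1, Fcer2a, Cd40 and Fcrla are in the third, where the share was 45.0%, and Cr2 and Cd38 are in the fourth, where it was 52.6%. Over all genes 41.3% had a peak in the body, against 2 of 9 here; by summit the share was 38.0% of all genes, against 1 of 9.

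Ordered by the gap to the nearest peak, Cd72 and Cd37 overlapped one, Cd22 (2.07 kb), Fcer2a (2.76 kb) and Cr2 (4.45 kb) followed closely, and Cd40 (21 kb), Ms4a1 (26.8 kb), Cd38 (44.5 kb) and Fcrla (106 kb) came last. The median gap was 4.45 kb for the 9 genes and 7.98 kb for all genes. A shorter gap than that of Cd38 was found for 67.3% of all genes, and than that of Fcrla for 77.7%. The early and late genes were interleaved in this order.

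**Figure D4:**
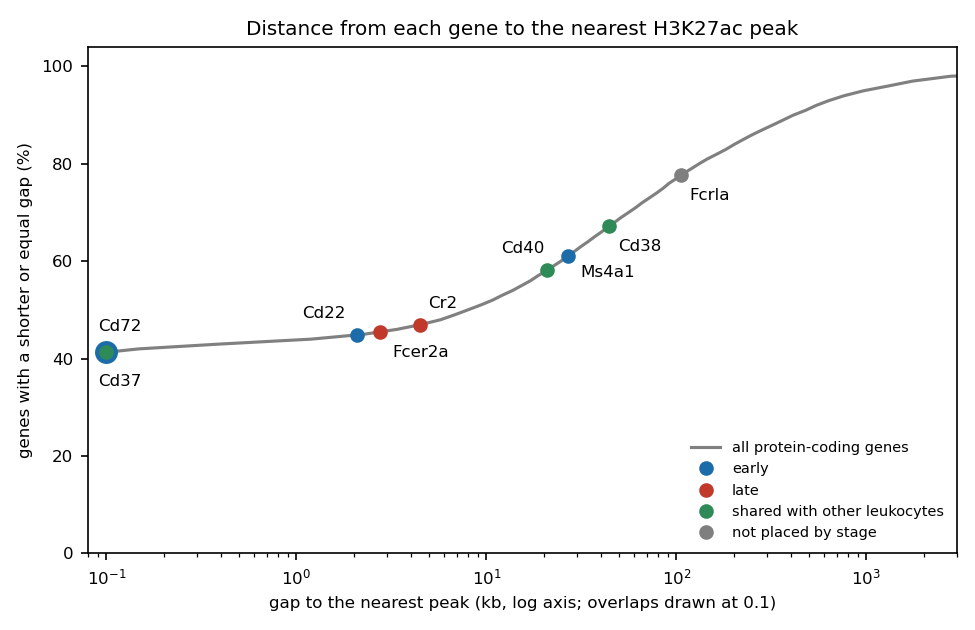
Gap from each gene to the nearest H3K27ac peak (kb, log axis, overlaps drawn at 0.1) against the percentage of all protein-coding genes with a gap as short or shorter (grey line). The points are the 9 genes, coloured by stage; they run from Cd72 and Cd37, which overlap a peak, to Fcrla at 106 kb.

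The signalling partners of these antigens had peaks where most of the antigens did not. Of 9 listed partners, 8 had a peak at an end, against 36.2% of all genes, the strongest at Inpp5d (signal value 12), a lipid phosphatase that restrains B-cell receptor signals, Cd81 (8.82) and Lyn (6.67). The exception was Ptpn6, the phosphatase recruited by CD22 and CD72, whose nearest peak lay 1834 bp away. Cd81, a membrane partner of CD21, had a peak at an end and Cr2 did not. Traf2 (3.73), Traf3 (3.54) and Traf6 (4.01), which carry the signal of CD40, had peaks at an end and Cd40 did not. Most of these partners also act in other cells. They had more CpG before the start, with a median of 14.5 for the 8 with an annotated start, against 4 for the 7 antigen genes. Of all genes with 10 or more CpG, 59.5% had a peak within 1 kb of an annotated start. Whether CpG number or use in other cells bears on the difference between partners and antigens was not tested.

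Among 29 other B-cell surface genes, 14 (48.3%) had a peak at an end, against 36.2% of all genes. The strongest were at Cd81 (8.82), Cd24a (7.77), the heat-stable antigen of early B cells, and Ccr7 (6.92), a homing receptor of lymph nodes. Of the genes of this list that lie beside the 9, Bst1, Fcrlb and Fcgr2b, none had one. The partner and surface lists share Cd81, and like the 9 genes they were drawn up with earlier results of these data known.

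The labelled cell type was read against markers. Of the sort markers, Ptprc (CD45, signal value 10.8) and Kit (5.66) had a peak at an end and Ly6a (Sca1) had its nearest peak 4288 bp away. None of 3 stem cell genes (Procr, Mecom and Hlf) had a peak at an end, where 36.2% of all genes did, and Mecom had 1 peak in its body; so few genes do not speak for or against the stem cell part of the label. All 4 B-cell markers had one (Cd79a, Cd79b, Ebf1 and Pax5), of which Cd79a and Cd79b are also among the 14 surface genes counted above. The counts were 1 of 6 T-cell genes, 0 of 3 NK-cell, 0 of 6 myeloid, 0 of 4 erythroid, 0 of 3 plasma-cell and 1 of 3 dendritic-cell genes, the last being Flt3, a gene of lymphoid progenitors as well. The T-cell, NK-cell, myeloid and erythroid genes had a median of 2, 1, 2 and 3 CpG before the start, and the B-cell markers 14. A peak at the start was found for 6.34% of all genes with 0 to 4 CpG and 59.5% of those with 10 or more. These lists are thus unlike in CpG, and low counts in the former do not show that a cell type was absent. Whether cells of the B lineage within the sort contributed to the peaks at Cd72 and Cd37 was not tested.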

How the data were processed

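H3K27ac was measured in 4 ChIPmentation libraries over 1 input library of the same genotype. The submitters' processing notes name BWA, MACS2 and mm10, which is GRCm38, without versions or roles. The deposited list is labelled as an overlap and optimal peak list. What was overlapped, and any other filters, are not given in the sources used here. A peak not kept at that step would be missing from the list. The authors deposited 1 list of 22948 peaks for the libraries together. The file has no header. By the usual narrowPeak layout, its columns were read as the authors' enrichment ratio (called the signal value), −log10 p-value and −log10 q-value; the deposited score, about 10 times the −log10 p-value, was not used. The lowest −log10 p was 2.01. Read depth is unknown, so no interval could be given, and peak values were used only to describe and rank peaks within the list.

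Genes and starts came from RefSeq tables of GRCm38.p6 (21887 protein-coding genes, 17492 with an annotated start). Coordinates are 1-based. Overlaps, gaps and nearest genes were computed with Python 3.11.15, pandas 2.3.3 and numpy 2.4.6, and the code was tested on simulated peaks. The nearest gene is the one whose end lies nearest the summit. CpG and motifs were counted in the 250 bases before each start. No statistical test was run. All 9 genes are named; from the other lists, the 3 strongest at an end and neighbours of the 9 are named, and any further names were picked with their values in view. A gene planned for these lists was left out of them and is not reported here. The genes and lists were chosen with earlier results of these data known. Alternatives were a −log10 q of 5 or more, a signal value of 4 or more, a q-value of at most 0.05, merging within 1 kb, windows of 2.5 and 100 kb, summits, starts alone and the nearest gene.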

Additional observations from a re-analysis of the deposited data

How the results depend on the processing

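Of 98 recomputed values, 70 stayed within 1.5 times the reported one and 28 moved by more. The 2 genes with a peak at an end, Cd72 and Cd37, were the count in all stricter lists, after merging, by summit and at annotated starts. With 2.5 kb the count was 3, since Cd22 was added, and the early antigens had 2 of 3 in place of 1; this setting for the stages was chosen after seeing the data, as was the split by CpG. By summit, 1 gene had a peak in its body in place of 2 (38.0% of all genes by summit), since the summit at Cd72 lies 66 bp outside the gene. Within 50 kb, 5 genes had a peak in place of 8, and 7 peaks were left in place of 17, whether peaks needed a −log10 q of 5 (53.5% of all genes had one) or a signal value of 4 (52.1%). Cd72 then had 2 peaks in place of 7, Cd22 0 in place of 3, and Cd40 and Cd38 0 each in place of 1. Within 100 kb, 8 genes still had a peak (77.0% of all genes did), with 24 peaks in all; Cd22 had 5, Fcer2a 4, and Cd37 and Cd38 2 each. Counted by nearest gene, 2 genes and 3 peaks were left. Libraries could not be left out. No paired analysis was possible because replicates were pooled before deposit. Depth, which is unknown, limits the genes without a peak.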

Other observations

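Groups within the list of other B-cell surface genes were read after their values were seen. The receptors for the survival factors BAFF and APRIL, which act on mature B cells and plasma cells, had no peak at an end (0 of 3, where 36.2% of all genes had one). Tnfrsf13b had 1 peak in its body, and the nearest peaks of Tnfrsf17 and Tnfrsf13c lay 2298 and 34435 bp away. The costimulatory genes Cd80 and Cd86 each had 1 peak in the body, where 41.3% of all genes had one, and none at an end. The nearest peak of Cd83, an activation marker, lay 95477 bp away. Enpep, the BP-1 antigen of pre-B cells, had 6 peaks in its body and a peak of 6289 bp at an end with a signal value of 6.64. Cd180, a Toll-like receptor relative of B cells, had 4 in its body and a signal value of 4.16 at an end. The peak at Cd79b, a chain of the B-cell receptor, was 6112 bp wide with a signal value of only 2.69. These picks do not set stages of B cells apart. Of the same list, 14 of 29 genes had a peak at an end. Ccr7 (6.92), Cd27 (6.79), Cd1d1 (4.8), Fcrl1 (3.7), Cxcr5 (3.15) and Fcmr (2.72) were also among them, and the nearest peak of Ly6d lay 52352 bp away. The share of all genes with 4 or 6 peaks in the body was not computed.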
